A study of Arabidopsis thaliana with 4 samples.

Results

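The berberine bridge enzyme-like FOX gene cluster of Arabidopsis comprises 5 genes of FAD-linked oxidases, AT1G26380, AT1G26390, AT1G26400, AT1G26410 and AT1G26420. They follow one another on chromosome 1, and in the TAIR10.1 gene order no other protein-coding gene lies between the first and the last of them. All 5 members have a probe set (a group of short probes that reads 1 gene) that the platform annotation assigns to a single gene, among 13333 genes with such a probe set and 22746 probe sets in all. The members were chosen because several of them had large differences between P. indica-exposed and mock-treated roots on these same arrays. Their differences are therefore given as a description without a test.

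Wild-type seedlings (ecotype Columbia-0), 12 d old at transfer after 48 h of cold and 10 d of light, were placed on a nylon membrane 3 cm from a plug of 5 mm diameter. The plug carried the root-colonizing fungus P. indica or, for the mock treatment, no hyphae. RNA was hybridized to Affymetrix ATH1 arrays, 1 for every combination of treatment (mock or P. indica) and time of co-cultivation (2 d or 6 d). By their labels the plants of the 2 d arrays were 12 d and those of the 6 d arrays 16 d old. The label age at 2 d equals the age stated at transfer, so the 2 do not share 1 count of days. The time points were meant to lie before and after physical contact of hyphae and roots. The study speaks of several independent experiments, but only 1 array per condition was analysed here, so no value has an error, and precision is limited by the number of arrays. The study describes separate RNA isolation from roots and shoots, and array hybridization of roots. Every array is labelled root, while a free-text description that speaks of embryos matches no other label.

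Berberine bridge enzyme-like proteins bind the cofactor FAD and oxidize their substrates, and many of them pass the electrons to oxygen, which releases H2O2. The family is named after an enzyme of poppies that closes the ring called the berberine bridge in alkaloid synthesis. Arabidopsis has no such alkaloids, and its members with a known substrate oxidize cell wall oligosaccharides, precursors of lignin or indole metabolites. AT1G26380 acts in the synthesis of indole carbonyl nitriles, cyanogenic compounds made from tryptophan upon pathogen attack, and its transcript is widely used as a marker for the response of Arabidopsis to microbial patterns and to fragments of the plant's own cell wall.

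The signals are linear MAS5 intensities as the authors deposited them. Signals below 22.2, the 40th percentile averaged over the arrays, were set to this floor, and a gene below it has only an upper bound on that array. Folds against such an array are lower bounds, written with "at least". Genes were counted if they differed by more than 3-fold. Probe sets differ in how brightly they bind, so signals are compared between arrays for 1 gene and not between genes.

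Of the 5 cluster genes, 4 had a higher signal in P. indica-exposed than in mock-treated roots at both time points, and AT1G26400 was below the floor on every array. The signal of AT1G26380 at 2 d was 15.4 without and 297.9 with the fungus, and the corresponding values at 6 d were 122.3 and 380.1. The mock signal at 2 d lay below the floor, and exposure went with an at least 13.4-fold higher signal. At 6 d, with both arrays above the floor, the difference was 3.11-fold. For AT1G26390 the mock array of 2 d gave 13.5 and the exposed array 423.9, and those of 6 d gave 92.7 and 410.4. The difference was at least 19.1-fold for the earlier and 4.43-fold for the later pair, and both exposed arrays lay far above both mock arrays.

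The signal of AT1G26410 was 5.1 without and 75.3 with the fungus at 2 d, and 43.8 without and 114.2 with it at 6 d. This corresponds to a difference of at least 3.39-fold at 2 d and of 2.61-fold at 6 d. AT1G26420, the last gene of the row, gave 6.9 on the mock and 51.5 on the exposed array of 2 d, and 21.4 and 49.4 on those of 6 d. Both mock arrays lay below the floor for this gene. The exposed roots exceeded them at least 2.32-fold at 2 d and at least 2.23-fold at 6 d.

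AT1G26400, the third gene of the row, had signals of 5.3 and 2.4 in mock-treated and exposed roots at 2 d and of 0.2 and 4.2 at 6 d. Signals of this size have no order, so no fold is given for it. Whether its transcript was below detection or its probe set binds poorly was not tested.

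**Figure D1:**
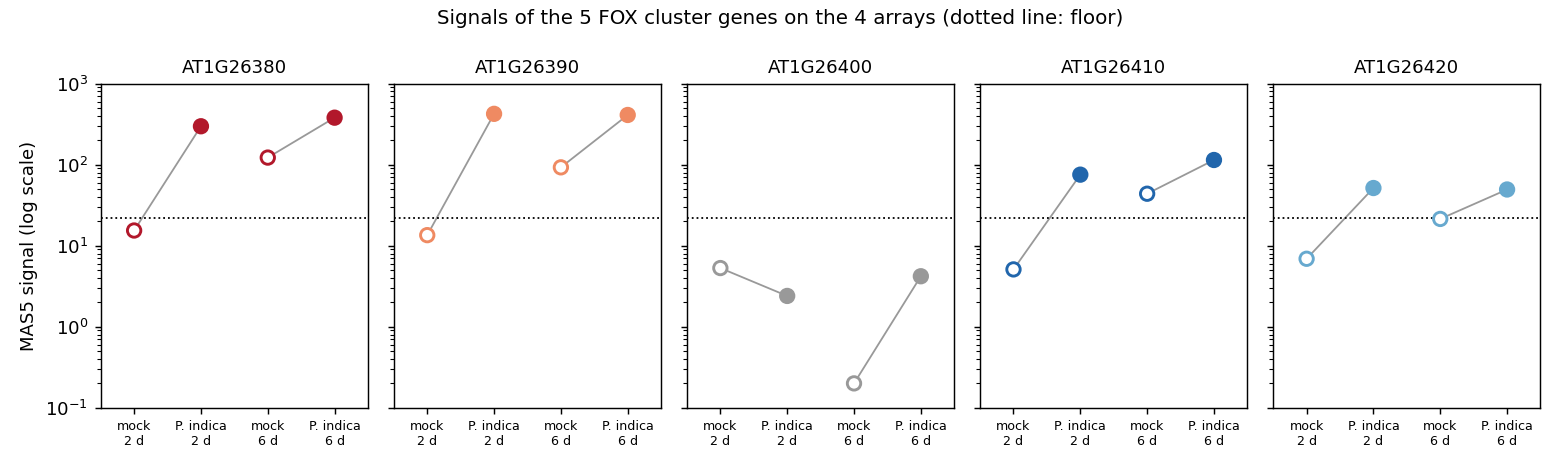
MAS5 signal (log scale) of each cluster gene on the 4 arrays, with open points for mock-treated and filled points for P. indica-exposed roots, a grey line joining the arrays of 1 time point, and the floor of 22.2 as a dotted line. Both exposed arrays are the highest for 4 genes and the mock array of 2 d is the lowest for 3 of them, both mock arrays of AT1G26420 lie below the floor, and all points of AT1G26400 lie below the floor, where the slope of a line has no meaning.

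Both exposed arrays were brighter than both mock arrays for these 4 genes. The share of all probe sets with this order was not counted, and the cluster was chosen for such differences, so nothing further is read from it. For AT1G26380, AT1G26390 and AT1G26410 the signal was lowest in mock-treated roots at 2 d and next in mock-treated roots at 6 d. Without replicates it cannot be said which neighbours in this order differ beyond their spread. For AT1G26420 the order of the mock arrays is not given by the data, since both lie below the floor.

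More than 3-fold higher signals in exposed roots were found for 3 of the 5 members at 2 d, where 0.29% of the 14118 counted probe sets passed this limit. At 6 d 2 of 5 members passed, compared with 0.107% of 14029 probe sets. Since the members were chosen from these differences, nothing further is read from the shares. With a limit of 2-fold 4 of 5 members were higher at each time point, beside 0.737% of the probe sets at 2 d and 0.456% at 6 d. Over all 5 members, with AT1G26400 at the floor, the median log2 ratio was 1.76 for the early pair, which is the bound of AT1G26410 and moved to 3.88 and 0.30 with floors at the 20th and 60th percentile, and 1.38 for the late pair. Over all counted probe sets it was -0.03 and -0.02, and the central 95% of the log2 ratios ran from -0.58 to 0.60 at 2 d and from -0.51 to 0.56 at 6 d. With the floor used here, the 4 members above it lay outside these ranges at both time points. No replicate array shows how much of a ratio is array noise.

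**Figure D2:**
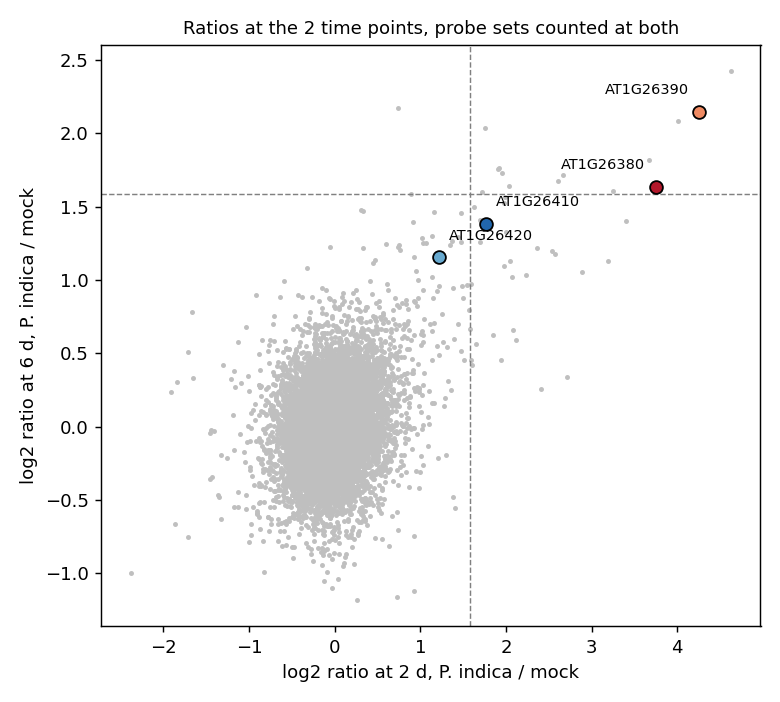
Log2 ratio of P. indica-exposed over mock-treated roots at 2 d (x axis) and at 6 d (y axis) for 13538 probe sets above the floor in both pairs (grey), with the 4 cluster genes above the floor in colour and dashed lines at 3-fold. AT1G26380 and AT1G26390 lie beyond both lines, AT1G26410 beyond that of 2 d and AT1G26420 beyond neither; their values at 2 d, and that of AT1G26420 at 6 d, are lower bounds.

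With the floor used here, the ratio was larger at 2 d than at 6 d for the 3 members for which this can be said. The log2 ratio of AT1G26380 was at least 3.75 at 2 d and 1.64 at 6 d, that of AT1G26390 at least 4.26 and 2.15, and that of AT1G26410 at least 1.76 and 1.38. For AT1G26420, with bounds of 1.21 and 1.15, the order of the time points is not known. The order for AT1G26410 depends on the floor: at the 60th percentile its log2 ratios were 0.30 at 2 d and 0.90 at 6 d, both of them bounds. The difference between the time points was not tested.

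The signals show where the ratios of the 2 time points diverge. In mock-treated roots AT1G26380 was at least 5.51-fold, AT1G26390 at least 4.18-fold and AT1G26410 at least 1.97-fold higher at 6 d than at 2 d. These differences share the mock array of 2 d with the ratios by which the genes were chosen, which favours low signals on this array. More than 3-fold higher signals in mock-treated roots at 6 d were found for 2 of the 5 members and for 0.19% of 14242 probe sets. In exposed roots the signals of both time points were close. AT1G26380 was 1.28-fold and AT1G26410 1.52-fold higher at 6 d, whereas AT1G26390 was 1.03-fold and AT1G26420 1.04-fold lower. None of the members passed 2-fold in this comparison, in which 2.02% of 14276 probe sets passed this limit upwards and 2.77% downwards. These 4 log2 differences, from -0.06 to 0.60, lay within the central 95% of all probe sets, which ran from -1.04 to 0.94.

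A comparison between time points also contains differences between the arrays. All 18 probe sets for transcripts spiked into the hybridization as controls were brighter on the later arrays, where the median log2 difference was 0.54 for the mock and 0.59 for the exposed pair. Between the mock and the exposed array it was 0.07 at 2 d and 0.10 at 6 d. The mean difference of the controls was larger than the median, with 0.89 for the mock and 0.92 for the exposed pair. Each array was then scaled to the mean of these controls, with the floor applied again. The log2 difference of 6 d and 2 d in mock-treated roots was at least 2.05 for AT1G26380, at least 1.65 for AT1G26390 and at least 0.57 for AT1G26410. In exposed roots it was then -0.57, -0.96 and -0.32 for these genes and -0.98 for AT1G26420. With this scaling the direction for AT1G26380 and AT1G26410 in exposed roots turned, while that of their mock signal did not. For AT1G26410 this rests on the use of the mean, since its log2 difference of 0.60 is about as large as the median of the controls.

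In the order of the genes on the chromosome, AT1G26400 without a signal above the floor lies between genes with high ratios. Among the 20 protein-coding genes on the flanks, 10 on either side of the cluster, 11 have a single-gene probe set and 5 of these were above the floor. None of the 5 passed 1.5-fold (0.585 on the log2 scale) at either time point. Few probe sets do, since the central 95% of all log2 ratios ran from -0.58 to 0.60 at 2 d and from -0.51 to 0.56 at 6 d. The count therefore does not set the flanking genes apart from other genes. On the side of AT1G26380 the nearest gene above the floor, AT1G26300, had log2 ratios of -0.02 (2 d) and -0.41 (6 d). On the side of AT1G26420 the nearest one was AT1G26450, with signals of 106.6 (mock) and 102.1 (exposed) at 2 d and of 66.7 and 73.4 at 6 d. Over the 5 flanking genes the log2 ratios ran from -0.21 to 0.28 at 2 d and from -0.41 to 0.29 at 6 d. The genes directly beside the cluster, AT1G26370 and the ureide permease gene UPS5, were not analysed here, so the data do not show where the differences end.

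**Figure D3:**
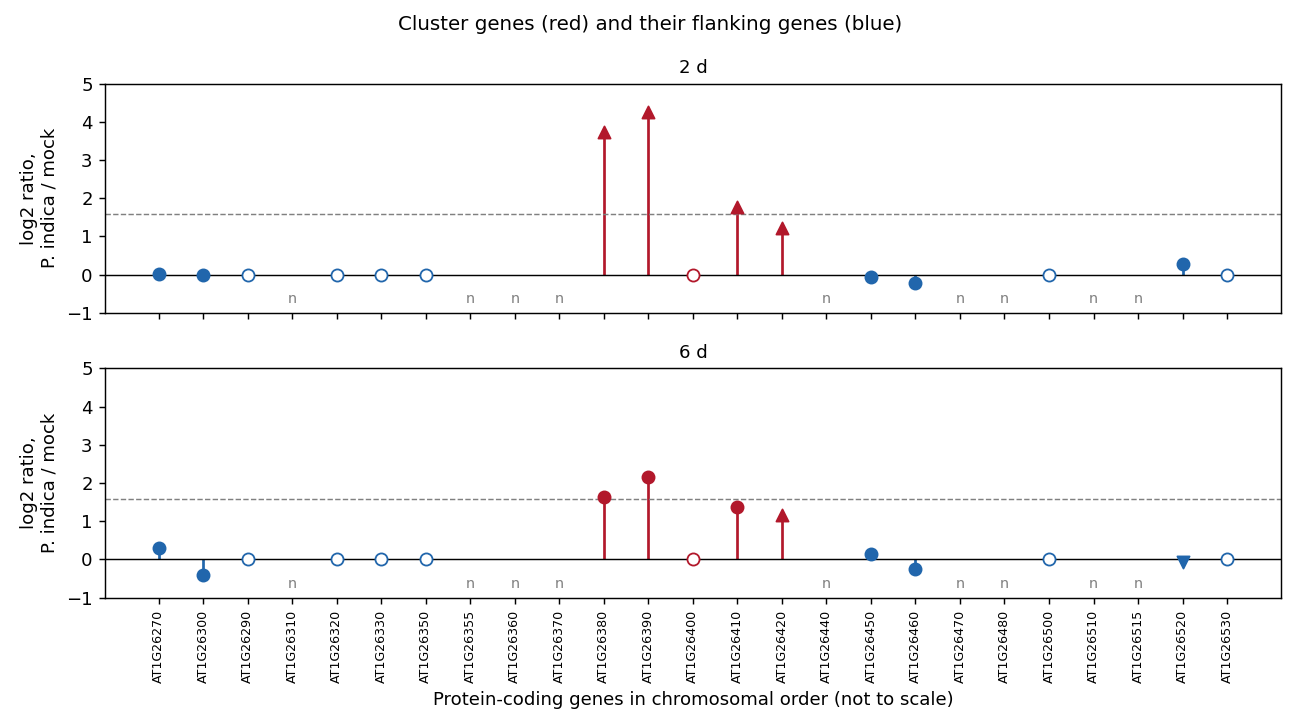
Log2 ratio of P. indica-exposed over mock-treated roots at 2 d (top) and 6 d (bottom) for the cluster genes (red) and the 10 protein-coding genes on either side (blue), in chromosomal order and not to scale. Filled points are measured on both arrays, triangles are bounds, and open points lie below the floor on both arrays. The letter n marks genes not analysed here, and the dashed line is at 3-fold. Among the genes above the floor only cluster genes pass 1.5-fold, a limit that few probe sets pass.

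The berberine bridge enzyme-like family has further members elsewhere in the genome, several of them also in rows of neighbours. Of 22 family genes listed outside the cluster 17 have a single-gene probe set, 7 of these were below the floor on every array and 10 were above it on at least 1. At 2 d 9 could be compared, with 6 higher and 3 lower in exposed roots, a median log2 ratio of 0.20 and a range from -0.33 to 0.77. At 6 d 10 could be compared, with 6 higher and 4 lower, a median of 0.10 and a range from -0.32 to 0.55. None of them passed 2-fold at either time point, and of all probe sets only 0.737% at 2 d and 0.456% at 6 d were more than 2-fold higher. The difference between the cluster and the other family genes was not tested, because the cluster was chosen for its ratios.

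AT4G20830, which codes for an oxidase of pectin fragments (oligogalacturonides), gave 370.5 on the mock and 633.8 on the exposed array of 2 d, and 313.2 and 435.9 on those of 6 d. This gave log2 ratios of 0.77 and 0.48. AT1G30700, a family gene in another row on chromosome 1, was 1.69-fold higher at 2 d, with signals of 369.1 and 622.9, while the log2 ratio at 6 d was 0.14. Both genes had their larger ratio at 2 d, as 3 of the cluster genes had, but unlike these both were well above the floor in mock-treated roots of 2 d.

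AT4G20860, which codes for an oxidase of cellulose fragments, had log2 ratios of 0.20 and 0.18. Its signals ran from 423.3 in mock-treated roots at 2 d to 559.8 in exposed roots at 6 d. AT1G30760, whose product oxidizes lignin precursors, had log2 ratios of -0.07 and -0.32, and its signals on the 4 arrays ran from 28.2 to 49.6. These 3 genes, which are known to act on cell wall compounds, differed by less than 2-fold, as did nearly all probe sets.

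In the row on chromosome 5, AT5G44380 had log2 ratios of 0.35 and 0.32 for the early and the late pair, AT5G44400 had 0.28 and 0.06, and AT5G44390 had 0.11 and -0.25. AT5G44410 was below the floor on both arrays of 2 d and had signals of 29.9 and 43.7 at 6 d, a log2 ratio of 0.55. The other family genes above the floor were AT2G34810, with -0.09 and -0.23, and AT4G20820, with -0.33 and -0.26. No row outside the FOX cluster held a gene above the floor that passed 2-fold, which few of all probe sets did. Several genes of these rows were below the floor or had no single-gene probe set.

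**Figure D4:**
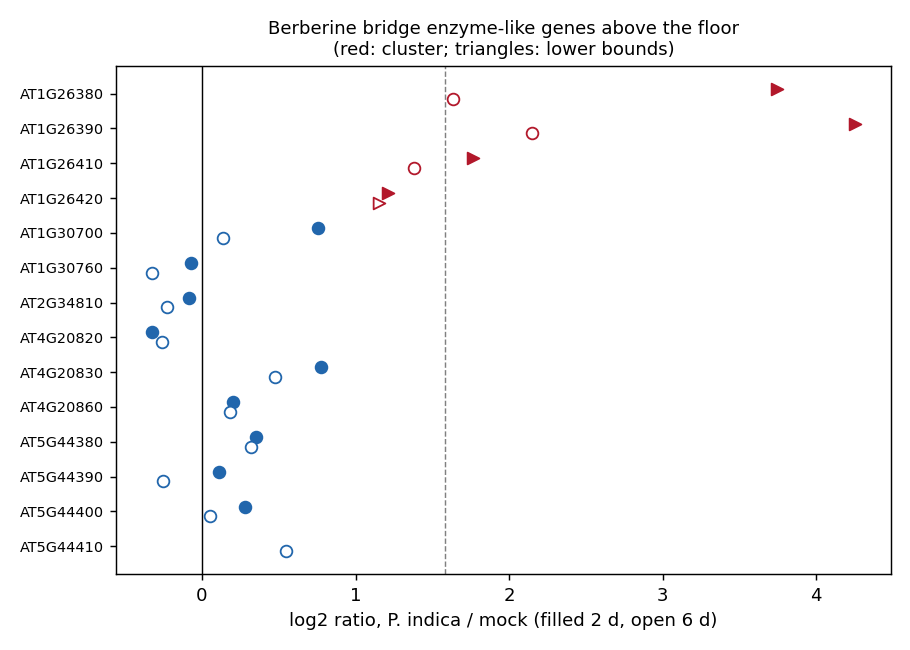
Log2 ratio of P. indica-exposed over mock-treated roots for the 14 berberine bridge enzyme-like genes above the floor, at 2 d (filled) and 6 d (open), with the cluster in red, triangles for lower bounds and a dashed line at 3-fold. The 4 cluster genes lie above 1 on the log2 scale at both time points, and the other 10 lie between -0.33 and 0.77.

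Little of the pathway around AT1G26380 could be followed. Of 17 listed genes of tryptophan-derived defence compounds and their regulators 1 has a single-gene probe set in the annotation used here. This gene, AT2G04400, codes for the indole-glycerol phosphate synthase of tryptophan synthesis. Its signal was 242.9 (mock) and 302.9 (exposed) at 2 d and 250.8 and 325.6 at 6 d, which gave log2 ratios of 0.32 and 0.38. It did not pass 2-fold. Pattern-triggered immunity is the defence that follows recognition of conserved microbial molecules. Of its 12 listed marker genes 3 could be measured, and all 3 were higher in exposed roots at both time points. A higher signal alone was common, as the median log2 ratio of all probe sets was -0.03 at 2 d and -0.02 at 6 d. AT1G51890, a receptor-like kinase gene, had signals of 51.9 and 105.5 at 2 d and of 85.2 and 134.2 at 6 d, with log2 ratios of 1.02 and 0.66. The transcription factor gene WRKY53 (AT4G23810) had 0.73 and 0.34, and the peroxidase gene AT2G37130 had 0.19 and 0.20. Both values of AT2G37130 and that of WRKY53 at 6 d lay within the central 95% of all probe sets. This range was -0.58 to 0.60 at 2 d and -0.51 to 0.56 at 6 d. AT1G51890 passed 2-fold at 2 d, with 2.03-fold, and none of the 3 passed 3-fold. The genes of this list had smaller ratios than any of the 4 cluster genes above the floor.

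The pattern over the 4 arrays was compared with that of 7826 genes above the floor outside the cluster. For this purpose the log2 signals of each gene were centred on the mean of its 4 arrays, and the Euclidean distance to the mean profile of the 4 cluster genes was taken. The 5 genes with the smallest distance were AT5G38900 (0.48), AT2G15220 (0.57), AT3G18250 (0.61), the transferase gene AT5G42830 (0.65) and the chitinase gene AT2G43570 (0.71). The median distance of all these genes was 2.42. The cluster genes themselves lay at distances of 0.71 for AT1G26410, 0.94 for AT1G26380, 1.16 for AT1G26390 and 1.39 for AT1G26420, so that 4 of the 5 genes outside the cluster were closer to the mean profile than any cluster gene. AT1G26400, whose profile is flat at the floor, lay at 2.38. All 4 cluster genes of the mean profile are at the floor on the mock array of 2 d, and AT1G26420 also on that of 6 d. The 5 genes outside the cluster were above the floor on all 4 arrays. The mean profile and the distances to it therefore depend on the floor, and the ranking was not repeated with other floors.

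For the closest gene, AT5G38900, the mock and exposed arrays gave 29.6 and 175.6 at 2 d and 64.7 and 146.2 at 6 d. These are differences of 5.93-fold and 2.26-fold, and all 4 arrays lay above the floor. Among the 5 genes the mock signal was 1.47-fold to 2.19-fold higher at 6 d than at 2 d, and the exposed signal at 6 d was between 1.30-fold lower and 1.19-fold higher than at 2 d. AT2G43570 had the largest ratios of the 5 with 6.11-fold at 2 d and 3.20-fold at 6 d. These genes were selected for likeness, so their shared pattern is no separate result, and 4 arrays are few points for a profile. The name of the AT2G15220 probe set marks it as one that may bind other transcripts too.

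**Figure D5:**
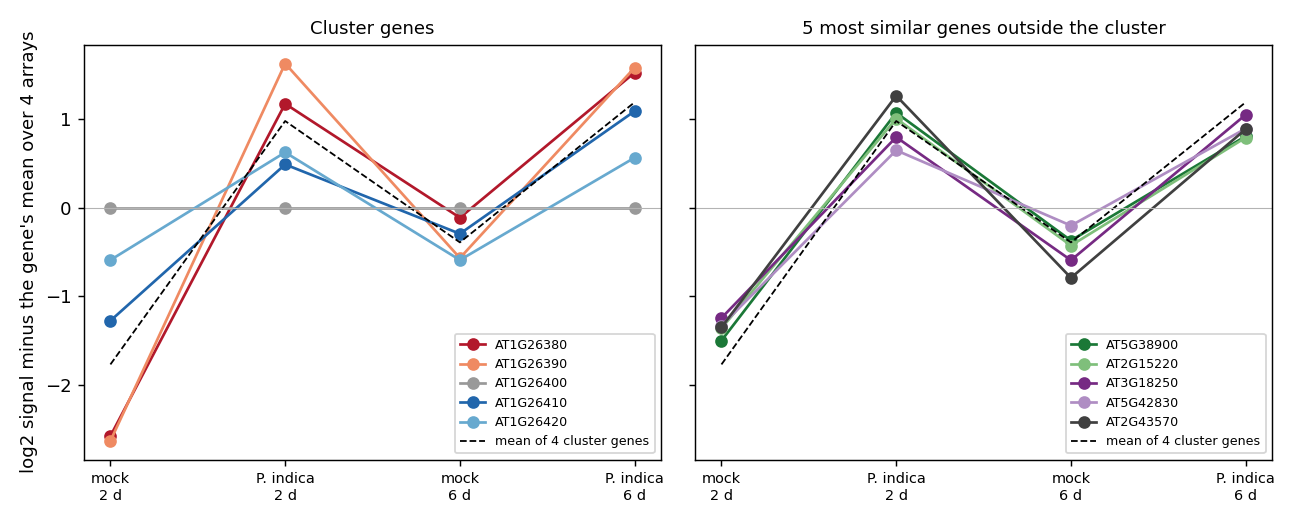
Log2 signal minus the mean of the gene over the 4 arrays (y axis) for the cluster genes (left) and the 5 genes outside the cluster with the smallest distance to them (right), with the mean profile of the 4 cluster genes above the floor as a dashed line in both panels. The exposed samples are highest in both panels and mock-treated roots at 2 d are lowest, except that both mock arrays of AT1G26420 are at the floor and tie and that AT1G26400 is flat.

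Markers of the labelled tissue were present but few could be read. Of 14 listed root markers 2 have a single-gene probe set, the beta-glucosidase gene PYK10 (AT3G09260) with signals from 3098.4 to 4468.1 and the root hair expansin gene EXPA7 (AT1G12560) with signals from 150.3 to 280.8. Of 11 listed markers of green shoots 3 have such a probe set, all of them above the floor on at least 3 arrays. Their log2 ratios at 2 d and 6 d were -0.40 and 0.58 for RCA (AT2G39730) and -0.52 and 0.44 for LHCB4.1 (AT5G01530). For PRK (AT1G32060) they were -0.01, which is a bound, and 0.82. With 22.3 and 16.3 PRK was near or below the floor at 2 d, so a sum over the 3 rests mainly on the other genes there. At 2 d the summed signal was 402.8 on the mock and 293.5 on the exposed array, and at 6 d it was 509.6 and 739.2. It was thus lower in exposed roots at 2 d and higher at 6 d, while the cluster genes above the floor were higher at both. Its part in the ratios of the cluster was not tested. Of 8 listed reference genes 4 were measured, with a median log2 ratio of 0.08 for the early and 0.04 for the late pair. In RNA of whole roots, more cells that express a gene and more RNA per cell cannot be told apart.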

How the data were processed

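The authors' deposited values are linear intensities, MAS5 signals of 4 ATH1 arrays, for 22810 probe sets. The processing notes name MAS5 without a version, and pooling of experiments is not described. From these values 64 control probe sets were left out. Signals under the floor (22.2, the log2 mean of the 40th percentiles) were set to it, and log2 ratios of exposed over mock were taken at each time. Probe sets entered the counts where the brighter array of a pair exceeded the floor. No p-value was computed, since each condition has 1 array.

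Probe sets were named through the platform annotation, updated by Entrez identifier to TAIR10.1, which named 13484 probe sets. For 13333 genes the probe set with the highest mean signal was used. No coordinates are printed, since no genome build is named for the arrays, and sequences were not used here.

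The members and gene lists were chosen with earlier results of these data known. Named are the members, family genes above the floor, up to 4 genes of each of the 2 pathway lists (largest ratios at 2 d), flanking genes above the floor nearest to the cluster, the 5 genes of most similar profile, and markers. The nearest flanking genes, which did not pass the 1.5-fold limit for naming, and the markers were named beyond the rule.

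Alternatives were a lower floor (4.64, from the 20th percentile), a higher one (61.4, from the 60th), no floor, 32 added to every signal, quantile normalization, a loess fit within each pair (span 0.3), median centring, limits of 2-fold and 4-fold, probe sets without cross-hybridization suffix, and scaling to hybridization controls. Counting was tested on simulated data. Python 3.11.15, numpy 2.4.6, pandas 2.3.3, statsmodels 0.14.6 and matplotlib 3.10.9 were used.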

Additional observations from a re-analysis of the deposited data

How the results depend on the processing

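The size of the ratios at 2 d depends on the floor, because the mock signals of that time point lie below it. With floors at the 20th and 60th percentile the median log2 ratio of the 5 members at 2 d was 3.88 and 0.30, and without a floor 3.88. The median log2 difference of 6 d and 2 d in mock-treated roots was 2.78, 0.00 and 2.78 under these settings, and the median of the ratio at 2 d minus that at 6 d was 2.50, 0.00 and 2.50, against 0.38 as reported. With the higher floor AT1G26410 had a log2 ratio of 0.30 at 2 d, no longer past 3-fold, and AT1G26420 lay below the floor on all arrays. With 32 added to every signal AT1G26410 (1.53 at 2 d) and AT1G26380 (1.42 at 6 d) were no longer past 3-fold, while AT1G26420 passed it at 2 d with the lower floor or none (2.90). Without a floor AT1G26400 had a log2 ratio of 4.39 at 6 d, from signals of 0.2 and 4.2, which have no order.

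Of the members 1 was more than 3-fold higher at 6 d with 32 added and 1 with a limit of 4-fold, and 4 passed a limit of 2-fold. Over all probe sets, the count of higher signals at 2 d was 95, 20, 73 and 21 with the lower floor, the higher floor, no floor and 32 added, and at 6 d 58, 8, 32 and 3. With limits of 2-fold and 4-fold it was 104 and 22 at 2 d and 64 and 5 at 6 d. The log2 ratio of AT1G26390 was past 3-fold in all 8 settings (the reported one and 7 alternatives) at both time points, from 2.79 to 4.97 at 2 d and from 1.83 to 2.16 at 6 d. Among the other family genes above the floor, none passed the limit under any alternative, including that of 2-fold. No paired analysis was possible because each condition has 1 array. MAS5 signals near or below the floor are noisy, which limits AT1G26400, AT1G26410 and AT1G26420. It also limits the ratios of AT1G26380 and AT1G26390 at 2 d, whose mock signals lie below the floor.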
